A study of Rattus norvegicus with 9 samples.

Results

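The mitochondrial oxidative phosphorylation (OXPHOS) genes were followed through the first minutes of returning electrical activity in cultured rat cortical neurons. They were taken from the array by name, as every non-control probe whose gene name begins with Nduf, Uqcr, Cox4 to Cox8 or Atp5, or is one of Sdha, Sdhb, Sdhc and Sdhd. The rule gave 71 gene names, of which 70 were tested among 25809 genes in all. The rule itself uses names and no measured value, and each name is represented by its brightest probe. By complex, 32 names belong to complex I, 4 to complex II, 5 to complex III, 16 to complex IV and 14 to complex V.

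The study held 9 single-colour Agilent expression arrays in 3 groups of 3. Cells were dissociated from the cortex of rat pups before birth and used after 11 to 15 days in culture; strain and sex are not given in the sources used here. Every culture had been in tetrodotoxin (TTX), a blocker of voltage-gated sodium channels that silences action potentials, for 48 h. The group called TTX was collected in that state, W15 was collected 15 min and W45 45 min after TTX was removed with 3 washes of medium. No culture that was never silenced and no mock wash is among the arrays analysed here, so removal of TTX and the wash itself cannot be told apart. The labels do not say whether the 3 arrays of a group came from separate cultures, so the p-values measure the spread between arrays, which may be technical in part.

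OXPHOS couples the oxidation of NADH and succinate to the making of ATP. Complexes I and II pass electrons to ubiquinone, complex III passes them on to cytochrome c, complex IV reduces oxygen, and the proton gradient built by complexes I, III and IV drives ATP synthase, which is complex V. Most subunits are encoded in the nucleus, imported and assembled with the few made from mitochondrial DNA, and neurons draw on this system for most of the ATP spent on ion pumping and synaptic transmission. Control of the nuclear subunit genes is usually described through the factors NRF-1, the ETS-family factor GABP (NRF-2), YY1 and ERR, with their coactivators of the PGC-1 family.

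Each value is a log2 signal relative to the array: the processed signal was set against the 75th percentile of its own array, so that 0 stands for that percentile, and values are listed in the order of replicates 1, 2 and 3. Log2 fold changes are differences of group means ± SE (n = 3 arrays per group). Of all probes, 72.4 to 77.9% stood well above background per array. The labelled cell type, mature neurons, was checked against its markers: 8 of 8 neuronal, 3 of 3 glutamatergic and 3 of 3 GABAergic markers were well above background on all 9 arrays. So were 5 of 6 astrocyte, 6 of 6 oligodendrocyte, 1 of 6 microglial, 3 of 6 endothelial or pericyte and 4 of 4 muscle markers, and 2 microglial markers and 1 endothelial or pericyte marker were so on none. Of all genes tested, 92.5% were well above background on all 9 arrays. The summed relative signal of the astrocyte markers spanned 73.4 to 86.7 in TTX, 75.7 to 84.2 in W15 and 67.1 to 89.8 in W45. That of the oligodendrocyte markers spanned 6.08 to 9.89 in TTX, 6.04 to 12.1 in W15 and 5.72 to 10.5 in W45, and that of the microglial markers 0.243 to 0.298, 0.231 to 0.253 and 0.122 to 0.266. The part of other cell types in any member's value was not tested. Fewer cells of a type and less RNA per cell cannot be told apart in such cultures.

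Of the 71 names, 65 are subunits of a complex and 6 are not. Ndufaf1 is an assembly factor of complex I, Cox7a2l takes part in joining complexes III and IV into supercomplexes, and Atp5s is coupling factor B, now named Dmac2l. Cox4nb is the neighbour of Cox4i1, now named Emc8, and is no OXPHOS protein. Cox6c1 corresponds to the pseudogene Cox6c-ps1 in the RefSeq table of the GRCr8 assembly. The probe named Cox6b is described in the files as uroplakin Ia, a bladder protein, and was well above background on 1 of 9 arrays, so this name was not tested and says nothing about cytochrome c oxidase. The probe of Ndufs6 also matches a name of its pseudogene and is uncertain. Names matched the RefSeq table by accession for 45 members, by symbol for 23 and by synonym for 2.

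The sequences below are those of the probes of the 5 members with an unadjusted p under 0.05 in W45 against TTX, on which the description turns, and of the pair Cox6c and Cox6c1. All are 60 bases long, as deposited with the array, 5′ to 3′, with positions in the rn3 build where a single run of 60 bases is given. Capitals in the Cox6c1 probe mark the 7 bases that differ from the Cox6c probe within the 48 bases over which both can be laid together, 41 of them identical.
Ndufab1, chr1:181052741-181052800 (-): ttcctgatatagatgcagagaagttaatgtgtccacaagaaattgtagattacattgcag
Atp5s, chr6:91801890-91801949 (+): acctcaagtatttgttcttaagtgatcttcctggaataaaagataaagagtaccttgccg
Uqcrh, chr5:136266062-136266121 (+): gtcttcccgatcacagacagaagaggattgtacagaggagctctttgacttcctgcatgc
Uqcrfs1, chr17:40436501-40436560 (+): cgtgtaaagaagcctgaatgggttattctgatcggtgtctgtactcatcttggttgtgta
Cox8a, chr1:210044588-210044647 (-): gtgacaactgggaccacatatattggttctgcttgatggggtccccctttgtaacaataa
Cox6c: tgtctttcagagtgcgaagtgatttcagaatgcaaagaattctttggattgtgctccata
Cox6c1, chr19:54402994-54403053 (-): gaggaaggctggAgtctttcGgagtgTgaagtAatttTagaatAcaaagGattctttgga
The Uqcrh probe is listed on the plus strand of rn3 although the gene is on the minus strand of GRCr8. How far the Cox6c1 probe also binds Cox6c transcripts was not tested.

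Some motifs, which the choice by name did not use, were more frequent in the promoters of the subunits than in all promoters. RefSeq promoters of the GRCr8 assembly, 250 bases before to 50 after the start, were at hand for 61 of the 71 members and 57 of the 65 subunits, against 27457 genes in all. The ETS core CCGGAAG stood on either strand in 17 of 57 subunit promoters (29.8%) and in 9.22% of all promoters of this length. YY1's AAGATGGCG stood in 9 (15.8%) against 1.93%, and in 8 of these 9 its first base lay between position -1 and 27 from the start. The palindrome of NRF-1, in which 2 copies of the short form GCGCATG on opposite strands overlap, stood in 4 (7.02%) against 0.932%, and the short form itself in 10 (17.5%) against 3.94%. The ERR element TCAAGGTCA stood in 2 (3.51%), those of Sdhd and Atp5g3, against 0.412%. At least 1 of the short form, the ETS core and YY1 was present in 27 of 57 subunit promoters (47.4%) and in 13.8% of all. The subunit promoters also had more G and C, with a median of 57% against 52.3%, and the part of base composition in these counts was not tested. All promoters were counted whether or not their gene was detected on the arrays, and no set of detected genes was taken for comparison.

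**Figure D1:**
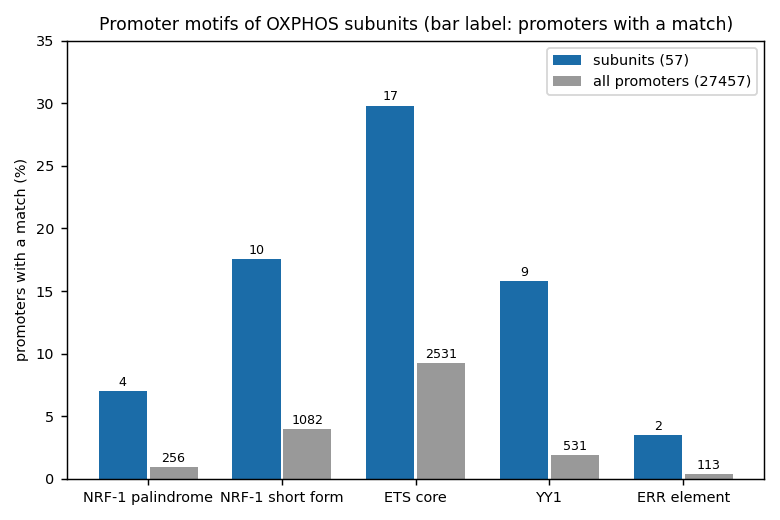
Share of promoters with a match on either strand (vertical axis, percent) for 5 motifs named on the horizontal axis, in 57 OXPHOS subunit promoters (blue) and all 27457 RefSeq promoters (grey); the number on a bar counts the promoters with a match. The blue bar is the taller one for each motif, with 29.8% against 9.22% for the ETS core.

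The palindrome of NRF-1 was found in Ndufa11, where 2 copies overlap, and in 3 genes of complex V, Atp5i, Atp5o and Atp5g2. By complex, the ETS core was in 6 of 28 promoters of complex I, 2 of 4 of complex II, 2 of 4 of complex III, 4 of 9 of complex IV and 3 of 12 of complex V, and YY1 was in 7 of 28 of complex I. The 120 bases before the start are printed for 4 members, chosen for the palindrome (Ndufa11 and Atp5i) or the ETS core (Uqcrh and Cox8a; Atp5i holds it too), and including the members of complexes I and III with the highest W45 estimates. They were picked after their values were seen. Capitals mark the palindrome or the ETS core, which reads CTTCCGG where it lies on the other strand, and coordinates are those of GRCr8.
Ndufa11, chr9:1637494-1637613 (+): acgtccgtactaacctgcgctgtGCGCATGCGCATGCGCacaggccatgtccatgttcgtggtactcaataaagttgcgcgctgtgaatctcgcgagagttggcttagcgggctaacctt
Atp5i, chr14:1464740-1464859 (+): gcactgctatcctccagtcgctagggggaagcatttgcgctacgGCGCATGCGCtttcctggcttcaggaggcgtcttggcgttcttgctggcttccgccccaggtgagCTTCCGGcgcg
Uqcrh, chr5:134790883-134791002 (-): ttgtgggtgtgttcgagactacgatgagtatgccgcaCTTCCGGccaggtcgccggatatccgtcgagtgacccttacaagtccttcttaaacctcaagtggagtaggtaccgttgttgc
Cox8a, chr1:213833624-213833743 (-): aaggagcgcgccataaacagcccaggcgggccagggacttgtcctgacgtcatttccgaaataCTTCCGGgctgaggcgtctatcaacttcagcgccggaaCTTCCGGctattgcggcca
A match is a run of letters and not a site shown to be bound in these cells. The promoter windows of Cox4i1 (plus strand) and Cox4nb (minus strand) on chromosome 19 of GRCr8 share 247 bases, so the same letters serve both. In W45 against TTX, the median log2 fold change was 0.051 over the 17 subunits with an ETS core and 0.060 over the other 40, and 0.045 over the 9 with YY1 against 0.060 over the other 48. It was 0.12 over the 4 with the palindrome and 0.045 over the other 53, while in W15 against TTX it was -0.0085 and 0.037, the other way round. No order of these medians was tested.

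Activity-induced genes differed widely between the groups, which gives a scale for the OXPHOS genes. Npas4, a transcription factor gene induced by calcium entry, read -8.68, -8.45 and -8.73 in TTX, -3.18, -1.86 and -3.71 in W15 and 0.71, 0.46 and 0.12 in W45. It was not well above background on any TTX array, so its level there is uncertain. Set against the lowest signal called well above background on the TTX arrays, Npas4 was 19.7-fold higher in W15 and 201-fold higher in W45. That call is made spot by spot, so these folds are approximate and not strict bounds. The limma test on the measured values gave adjusted p = 0.00165 and 8.71e-06. Fos, the AP-1 subunit, read -3.16, -3.02 and -2.63 in TTX, 1.48, 2.62 and 1.71 in W15 and 4.03, 3.90 and 3.09 in W45, and all 6 washed arrays lay above all 3 TTX arrays. The log2 fold change in W45 was 5.32 ± 0.24 for Arc, a synaptic plasticity gene, and 4.19 ± 0.18 for Egr1, a zinc finger factor (adjusted p = 9.68e-06 and 8.71e-06). Of 12 immediate early genes, 5 were called higher in W15 and 11 in W45 against TTX, and none was called lower. Of all genes, 0.0232% and 0.209% were called. All 12 estimates lay above 0 in both comparisons. W45 replicate 1 carried this response as well: Arc read 3.67, 3.57 and 3.03 in these 3 arrays, and -2.03, -1.87 and -1.80 in TTX.

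At 15 min, no OXPHOS member passed the test. Of 70 members, 0 were called higher or lower in W15 against TTX (limma, p under 0.05 after Benjamini-Hochberg adjustment over all genes), where 0.0232% of all genes were called, and 0 had an unadjusted p under 0.05, against 3.39% of all genes. The lowest adjusted p among the members was 0.997. Their median log2 fold change was 0.028, against 0.054 over all genes, and 46 of 70 lay above 0, against 61.3% of all genes. That count rested on the scaling: it was 36 with quantile scaling (53.5% of all genes), 36 with normexp background correction (75.3%) and 4 with no scaling between arrays (21.1%). Single members ranged from -0.32 to 0.47. The W15 and TTX arrays did not overlap for 11 members, 15.7% against 13.8% of all genes, a share near the background.

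At 45 min the members again gave 0 calls of 70, where 0.209% of all genes were called, and the lowest adjusted p was 0.652. An unadjusted p under 0.05 was reached by 5 members, against 6.44% of all genes. The median log2 fold change was 0.054, against 0.051 over all genes, with 52 of 70 above 0 against 60.2% of all genes, and the range was -0.66 to 0.65. Here 33 lay above 0 with quantile scaling (52.8% of all genes), 50 with normexp (68.7%), 6 with no scaling (13.9%) and 35 without W45 replicate 2 (53.6%), so the members had no direction that held across these settings. Arrays of W45 and TTX did not overlap for 7 members, 10.0% against 11.7% of all genes. Between W45 and W15, 0 of 70 were called where 0.132% of all genes were, the median was 0.0049 against 0.0014, and 37 lay above 0 against 50.3% (31 with quantile scaling, 47 with normexp and 26 with no scaling). An unadjusted p under 0.05 was reached there by 3 members, against 6.63% of all genes, and the arrays did not overlap for 6 members, 8.57% against 8.11%. The W15 and W45 comparisons share the 3 TTX arrays, so their values are set side by side and not counted as separate evidence.

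The intervals say which changes these arrays could have shown. The members' standard error of a log2 fold change had a median of 0.142, against 0.186 over all genes. In W15 against TTX, the 95% confidence interval (unadjusted) stayed within a 1.5-fold change either way for 57 of 70 members and within a 2-fold change for 69. In W45 against TTX it did so for 54 and 67, where the same was true of 49.3% and 86.0% of all genes. The 3 members whose interval in W45 reached past a 2-fold change were Ndufab1, Atp5s and Cox6c1. In W15 it was Cox6c1. For the members whose interval reached past 1.5-fold, a change of that size lay inside the interval, and a p that misses the threshold does not show that a gene was constant.

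**Figure D2:**
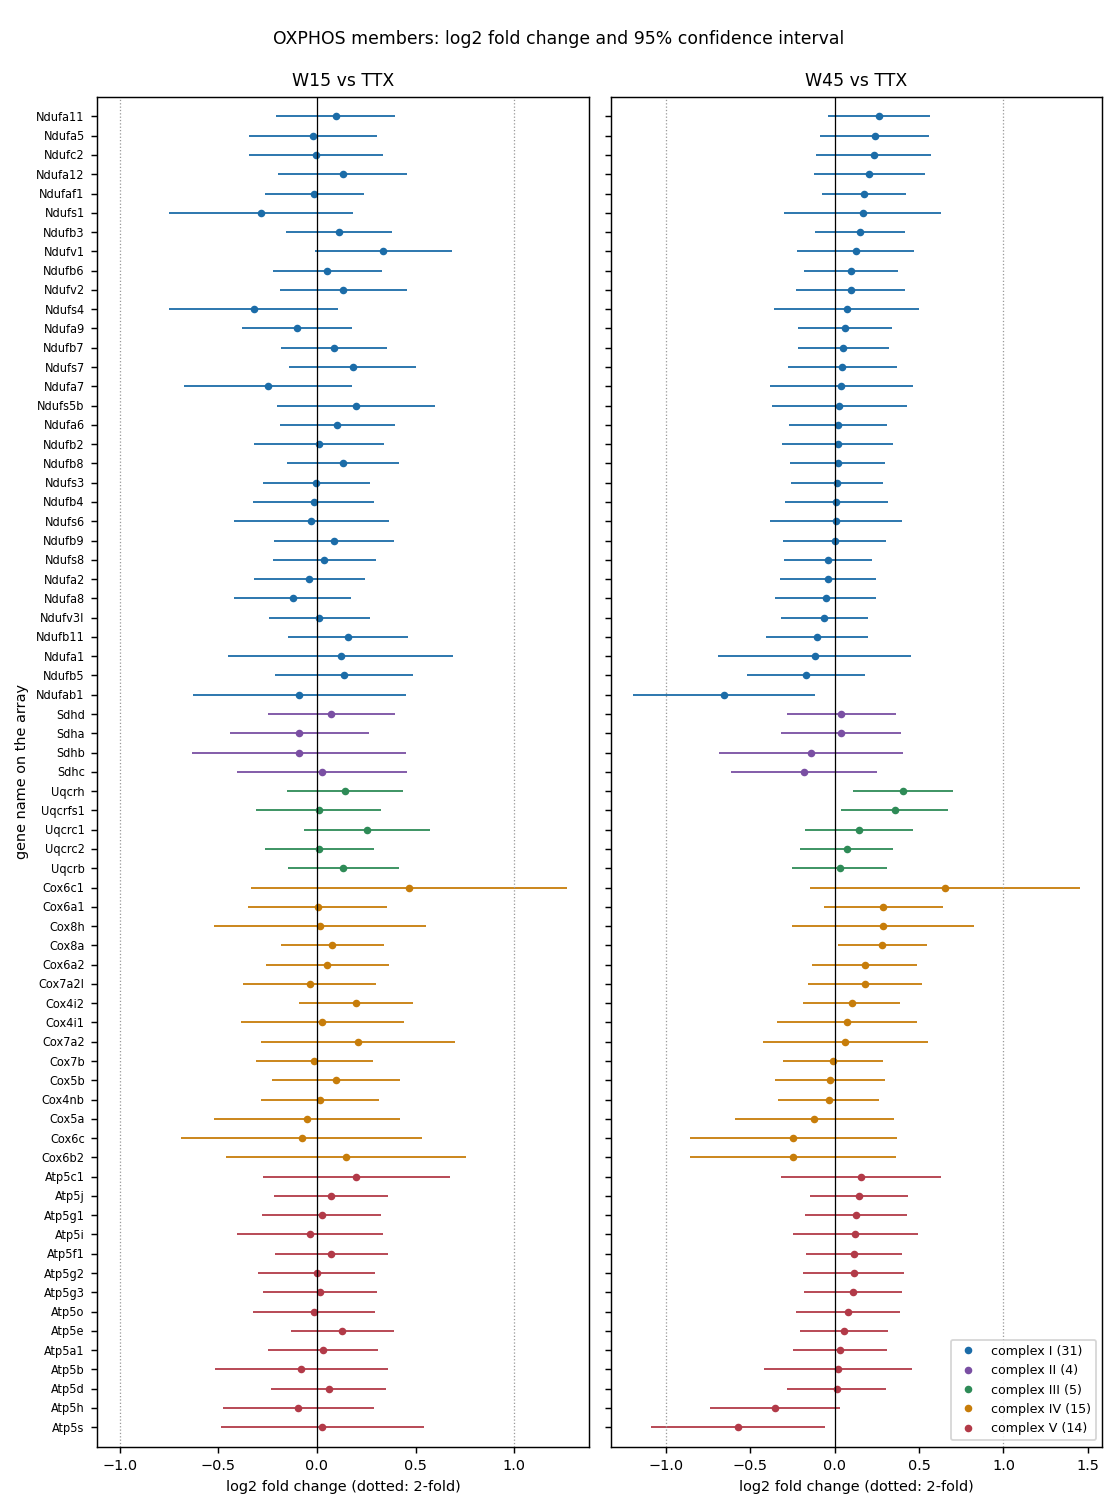
Log2 fold change (horizontal axis) of 69 of the 70 tested members in W15 (left) and W45 (right) against TTX, 1 gene a line, coloured by complex as named by the rule, with points for the estimate and lines for the 95% confidence interval. In W45 the intervals of Ndufab1 and Atp5s lie below 0 and those of Uqcrh, Uqcrfs1 and Cox8a above it before any adjustment, and no adjusted p passes.

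Complex I, which oxidises NADH, had 32 tested members with medians of 0.045 in W15 and 0.033 in W45 against TTX, and 19 and 24 of them above 0. The medians of all genes were 0.054 and 0.051, with 61.3% and 60.2% above 0. With quantile scaling 17 and 15 of the 32 were above 0, with normexp 18 and 22, and with no scaling 1 and 0. Ndufv1 carries the flavin where NADH is oxidised, and read 2.47, 2.72 and 2.51 in TTX, 2.73, 3.17 and 2.80 in W15 and 2.64, 2.60 and 2.83 in W45. Its log2 fold change, 0.34 ± 0.15 in W15, was the largest rise of the complex there, and 0.12 ± 0.15 in W45; the 3 W15 arrays lay above the TTX arrays, with replicate 2 the highest. Ndufs4, an accessory subunit of the electron-input arm, read 0.63, 0.61 and 0.57 in TTX, -0.04, 0.17 and 0.72 in W15 and 0.71, 0.81 and 0.51 in W45. It had the lowest W15 estimate (-0.32 ± 0.19), with replicates 1 and 2 low and replicate 3 just above the TTX values. Ndufs1, the large iron-sulfur subunit, read 1.79, 1.85 and 1.69 in TTX, 1.51, 1.33 and 1.64 in W15 and 1.52, 1.91 and 2.40 in W45. Here the W15 arrays lay below the TTX arrays (-0.29 ± 0.21, adjusted p = 0.997) and the W45 arrays spread on both sides (0.17 ± 0.21), with replicate 3 the highest of all 9.

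Ndufa1, a small membrane subunit needed for assembly, read 5.29, 5.32 and 5.33 in TTX, 5.55, 5.34 and 5.41 in W15 and 5.33, 5.72 and 4.54 in W45, so that the W45 group held both the highest and the lowest array (-0.12 ± 0.25). Ndufa11, another membrane subunit and the one with the doubled NRF-1 palindrome, read 1.37, 1.47 and 1.34 in TTX, 1.45, 1.46 and 1.56 in W15 and 1.48, 1.88 and 1.62 in W45. It had the largest W45 rise of the complex by estimate, 0.26 ± 0.13 (adjusted p = 0.79), with all W45 arrays above all TTX arrays and replicate 2 well above the others. Ndufab1, the acyl carrier protein of mitochondria that is also a subunit of complex I, read 3.99, 4.16 and 4.25 in TTX, 4.10, 4.02 and 4.01 in W15 and 4.08, 3.32 and 3.02 in W45. Its log2 fold change in W45 was -0.66 ± 0.24, a 1.58-fold lower mean (95% interval -1.19 to -0.12, unadjusted p = 0.022, adjusted p = 0.716), and -0.089 ± 0.24 in W15. W45 replicates 2 and 3 were low and replicate 1 lay among the other groups, which were within 3.99 to 4.25. Without W45 replicate 1, Ndufab1 was the 1 member called, at -0.96 against TTX (limma, adjusted p = 0.0369) and -0.87 against W15 (adjusted p = 0.0489), while all genes called rose from 54 to 162 and from 34 to 179. The assembly factor Ndufaf1 read -2.19, -2.28 and -2.32 in TTX, -2.20, -2.32 and -2.31 in W15 and -2.11, -2.11 and -2.06 in W45, with the W45 arrays highest by a narrow margin (0.17 ± 0.11, adjusted p = 0.831).

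Complex II, succinate dehydrogenase, is the one complex shared with the citric acid cycle and has no subunit from mitochondrial DNA. Its 4 members had medians of -0.033 in W15 and -0.051 in W45, with 2 of 4 above 0 in each. Sdha, the flavoprotein that oxidises succinate, read 5.11, 5.15 and 4.92 in TTX, 5.10, 4.93 and 4.88 in W15 and 5.11, 5.35 and 4.83 in W45 (-0.089 ± 0.16 in W15 and 0.037 ± 0.16 in W45). Sdhb, the iron-sulfur subunit, read 3.92, 4.17 and 4.15 in TTX, 3.37, 4.40 and 4.20 in W15 and 3.91, 3.88 and 4.03 in W45, and the W15 group held its lowest and its highest array (-0.090 ± 0.24 and -0.14 ± 0.24). The membrane anchor Sdhc read 3.84, 3.75 and 3.92 in TTX, 4.02, 3.70 and 3.86 in W15 and 3.96, 3.23 and 3.78 in W45, with W45 replicate 2 alone low (0.024 ± 0.19 and -0.18 ± 0.19). Its partner Sdhd read 4.60, 4.69 and 4.70 in TTX, 4.67, 4.90 and 4.63 in W15 and 4.72, 4.89 and 4.49 in W45 (0.072 ± 0.14 and 0.039 ± 0.14). Groups overlapped for all 4 members in both comparisons.

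Complex III, which hands electrons from ubiquinol to cytochrome c, had 5 tested members, and all 5 estimates were above 0 in both comparisons, with medians of 0.13 and 0.14. With quantile scaling 3 and 4 of the 5 were above 0, with normexp 3 and 5, and with no scaling 1 and 2. These counts rest on few genes and none passed the test. Uqcrh, the acidic hinge protein at the cytochrome c site, read 5.79, 5.82 and 5.72 in TTX, 5.997, 5.86 and 5.90 in W15 and 6.02, 6.39 and 6.13 in W45. All W15 and all W45 arrays lay above the TTX arrays, with log2 fold changes of 0.14 ± 0.13 and 0.40 ± 0.13 (1.32-fold in W45, 95% interval 0.11 to 0.70). Its W45 value had the lowest p of any member, 0.013 unadjusted and 0.652 adjusted by limma. Uqcrfs1, the Rieske iron-sulfur protein, read 4.69, 4.70 and 4.65 in TTX, 4.69, 4.63 and 4.75 in W15 and 4.76, 5.16 and 5.20 in W45. W45 replicates 2 and 3 were high and replicate 1 stood just above the range of the other groups (0.36 ± 0.14 against TTX, unadjusted p = 0.032, adjusted p = 0.762, and 0.0089 ± 0.14 in W15).

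Of the core proteins of complex III, Uqcrc1 read 1.97, 2.10 and 1.84 in TTX, 2.23, 2.41 and 2.03 in W15 and 2.02, 2.22 and 2.10 in W45, the largest W15 estimate of the complex (0.26 ± 0.14, adjusted p = 0.997; 0.14 ± 0.14 in W45). Uqcrc2 read 5.03, 5.07 and 5.01 in TTX, 5.11, 4.94 and 5.10 in W15 and 4.99, 5.26 and 5.07 in W45, with groups that overlapped (0.012 ± 0.12 and 0.071 ± 0.12). Uqcrb, which helps bind ubiquinone, read 5.43, 5.50 and 5.40 in TTX, 5.65, 5.55 and 5.55 in W15 and 5.54, 5.60 and 5.29 in W45 (0.13 ± 0.13 and 0.030 ± 0.13). Its W15 arrays lay above the TTX arrays, and W45 replicate 3 was the lowest of the 9. Uqcrb had 3 probes, whose W45 estimates were 0.030, 0.21 and -0.12, so its probes did not share a direction.

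Complex IV, cytochrome c oxidase, had 15 tested names and 12 subunits among them. Over the 12 subunits the medians were 0.040 in W15 and 0.067 in W45, with 9 and 7 above 0. Cox4i1, the common form of the largest nuclear subunit, read 4.60, 4.80 and 4.40 in TTX, 4.64, 4.90 and 4.35 in W15 and 4.45, 4.83 and 4.74 in W45 (0.028 ± 0.18 and 0.072 ± 0.18). Cox5a read 5.33, 5.56 and 5.38 in TTX, 5.53, 5.35 and 5.23 in W15 and 5.47, 5.62 and 4.81 in W45 and was lowest on W45 replicate 3 (-0.12 ± 0.21). Cox5b read 4.77, 4.79 and 4.62 in TTX, 4.70, 4.93 and 4.84 in W15 and 4.66, 4.50 and 4.93 in W45 (-0.026 ± 0.14); both take part in the matrix side of the enzyme, and neither separated the groups. Cox8a, a small membrane subunit in the form found in most tissues, read 5.75, 5.83 and 5.72 in TTX, 5.82, 5.88 and 5.84 in W15 and 5.92, 6.16 and 6.06 in W45. All W45 arrays lay above all W15 and TTX arrays, by small steps, with a log2 fold change of 0.28 ± 0.12 (1.22-fold, 95% interval 0.019 to 0.55, unadjusted p = 0.038, adjusted p = 0.768).

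Cox6c read 5.95, 6.25 and 6.14 in TTX, 6.10, 5.97 and 6.04 in W15 and 6.08, 6.37 and 5.15 in W45, and the low mean in W45 (-0.25 ± 0.27) came with 1 low array, replicate 3. Cox6c1, the pseudogene name, read -6.32, -5.88 and -6.30 in TTX, -5.61, -5.20 and -6.29 in W15 and -6.01, -4.77 and -5.76 in W45. It had the highest estimates of any member in both comparisons (0.47 ± 0.35 and 0.65 ± 0.35) and the largest standard error, with W15 replicate 2 and W45 replicate 2 high. These are dim readings, since the lowest signal called well above background averaged -7.22 over the TTX arrays. Its probe differs from the Cox6c probe at 7 of 48 shared bases, as printed above. Both probes were highest on W45 replicate 2 and had the same order within TTX. Over all the arrays their orders differed, and W45 replicate 3 was lowest for Cox6c but not for Cox6c1. Cox7a2 read 4.48, 4.71 and 4.79 in TTX, 4.93, 4.83 and 4.84 in W15 and 4.95, 5.03 and 4.18 in W45, with W15 above TTX (0.21 ± 0.22) and W45 replicate 3 the lowest array (0.063 ± 0.22). Cox7b read 4.01, 3.99 and 4.01 in TTX, 3.89, 4.02 and 4.07 in W15 and 4.03, 4.17 and 3.79 in W45 and varied little (-0.010 ± 0.13). Cox7a2l and Cox4nb, which are no subunits, gave 0.18 ± 0.15 and -0.037 ± 0.13 in W45.

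Forms of complex IV subunits known from other tissues were also above background on all 9 arrays. So were all 70 tested members and 92.5% of all genes tested, so passing this mark says little about these forms. Of the forms, Cox8h lay nearest to the lowest signal called well above background, which averaged -7.22 over the TTX arrays. Cox6a2, a heart and skeletal muscle form, read -1.54, -1.48 and -1.56 in TTX, -1.47, -1.35 and -1.60 in W15 and -1.53, -1.13 and -1.39 in W45, and Cox8h, now named Cox8b and likewise a muscle form, read -5.59, -5.44 and -5.99 in TTX, -5.41, -5.74 and -5.81 in W15 and -5.59, -4.88 and -5.69 in W45. Cox4i2, known from lung and from responses to low oxygen, read -0.72, -0.55 and -0.67 in TTX, -0.55, -0.40 and -0.40 in W15 and -0.69, -0.54 and -0.40 in W45, and Cox6b2, known from testis, read -2.94, -2.58 and -3.18 in TTX, -2.84, -2.45 and -2.97 in W15 and -2.89, -2.81 and -3.74 in W45. Their counterparts Cox6a1 (7.40, 7.56 and 7.30 in TTX) and Cox8a and Cox4i1 above are given as separate probes, and levels of different probes are not set against each other. None of these forms passed the test: W45 estimates were 0.18 ± 0.14, 0.29 ± 0.24, 0.10 ± 0.13 and -0.25 ± 0.27, and 0.29 ± 0.16 for Cox6a1. The name Cox8h stands on 3 probes. The probe used here lies on the minus strand of rn3, and the other two, from an expressed sequence tag, are listed on the plus strand; of those, 1 was above background on only 3 of 9 arrays and the other gave -0.25 in W45.

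Complex V, ATP synthase, had 14 tested names, 13 of them subunits. Over the 13 subunits the medians were 0.024 in W15 and 0.11 in W45, with 8 and 12 above 0. Of all 14 names, 12 lay above 0 in W45, against 5 with quantile scaling, 12 with normexp and 0 with no scaling. The shares of all genes above 0 were 60.2%, 52.8%, 68.7% and 13.9% in the same order. In the catalytic head, Atp5a1 (subunit alpha, now Atp5f1a) read 5.76, 5.79 and 5.57 in TTX, 5.77, 5.85 and 5.60 in W15 and 5.73, 5.75 and 5.74 in W45, and Atp5b (subunit beta, now Atp5f1b) read 5.29, 5.37 and 5.28 in TTX, 4.79, 5.54 and 5.38 in W15 and 5.40, 5.45 and 5.15 in W45. Their W45 estimates were 0.034 ± 0.12 and 0.021 ± 0.19, and the low value of Atp5b was W15 replicate 1. Atp5c1, subunit gamma of the rotor, read 4.57, 4.66 and 4.68 in TTX, 4.79, 4.86 and 4.87 in W15 and 4.90, 5.21 and 4.28 in W45. Its W15 arrays lay above the TTX arrays (0.20 ± 0.21), and the W45 group held both the highest and the lowest array (0.16 ± 0.21). Atp5g1, Atp5g2 and Atp5g3 encode the same mature subunit c of the membrane ring, and gave 0.13 ± 0.13, 0.11 ± 0.13 and 0.11 ± 0.13 in W45. Atp5g1 read 5.15, 5.29 and 5.10 in TTX, 5.24, 5.38 and 5.01 in W15 and 5.24, 5.30 and 5.39 in W45, with groups that overlapped.

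Atp5h, subunit d of the peripheral stalk, read 4.83, 4.87 and 5.05 in TTX, 4.84, 4.73 and 4.90 in W15 and 4.92, 4.30 and 4.47 in W45, again with W45 replicates 2 and 3 low and replicate 1 among the other groups (-0.094 ± 0.17 in W15 and -0.35 ± 0.17 in W45, adjusted p = 0.775). Atp5s, coupling factor B and no subunit of the enzyme proper, read 0.65, 0.73 and 0.64 in TTX, 0.81, 0.77 and 0.53 in W15 and 0.59, -0.43 and 0.14 in W45. All 3 W45 arrays lay below the TTX arrays, replicate 1 by a narrow margin and replicate 2 by the widest (-0.57 ± 0.23, 1.49-fold lower, 95% interval -1.09 to -0.058, unadjusted p = 0.033, adjusted p = 0.762). Against W15 it was -0.60 ± 0.23.

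**Figure D3:**
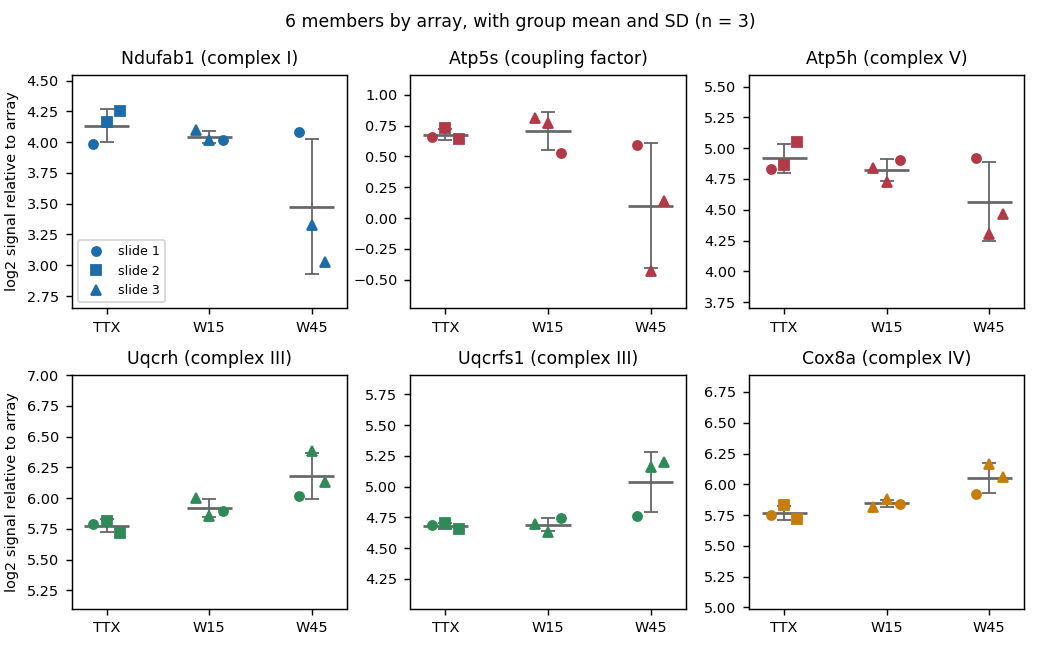
Log2 signal relative to the array (vertical axis, the same span in each panel) of 6 members in TTX, W15 and W45; symbols are single arrays shaped by slide, with the group mean and SD (n = 3). In Ndufab1, Atp5h and Uqcrfs1, W45 replicate 1 (the circle) stands near the TTX and W15 values while replicates 2 and 3 (triangles) stand away from them.

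The W45 arrays differed more among themselves than the arrays of the other groups. The median SD of the members was 0.095 in TTX, 0.095 in W15 and 0.19 in W45 (n = 3 each), against 0.15, 0.19 and 0.26 over all genes. W45 was the group with the largest SD for 47 of 70 members, against 56.1% of all genes. W45 replicate 2 was the highest of the 9 arrays for 35 of 70 members, and its median deviation from the members' means was 0.17, against 0.095 over all genes. W45 replicate 3 was the lowest of the 9 for 23 members, with a wide spread between members (interquartile range 0.31, against 0.12 to 0.23 on the other 8 arrays). The medians of W45 replicates 1 and 3 were 0.0063 and -0.035, against -0.019 and 0.024 over all genes. The counts of highest and lowest arrays and the interquartile ranges were not taken over all genes. W45 replicate 2 also had the highest median of the 9 arrays over all genes, so these counts are not shown to be particular to the members.

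**Figure D4:**
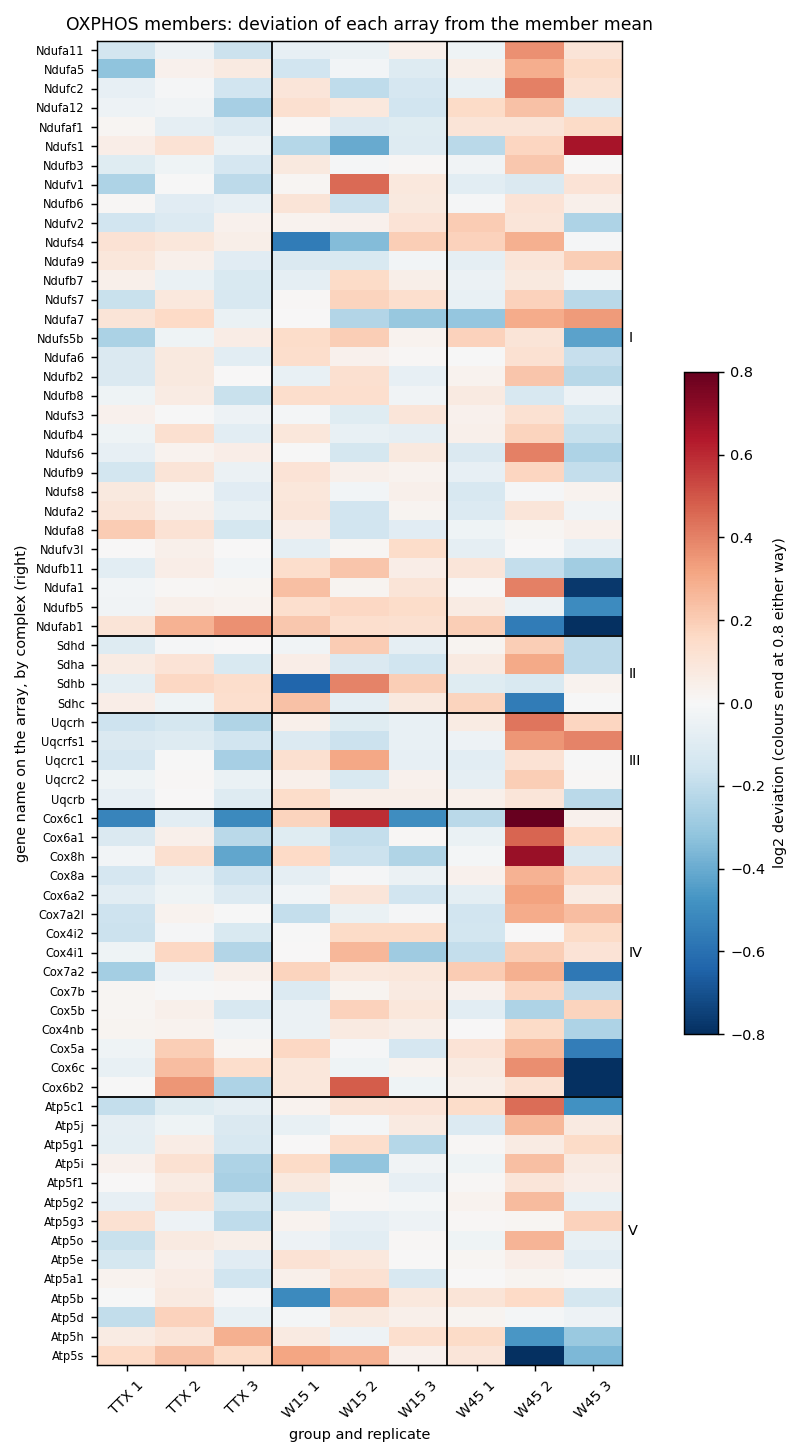
Deviation of each array (columns, by group and replicate) from the member's mean over 9 arrays, in log2 units by colour, for 69 of the 70 tested members (rows, by complex). W45 replicate 2 is red for most rows, 57 of the 69 drawn lying above their mean, while W45 replicate 3 mixes strong red and strong blue. The same share over all genes was not taken.

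The arrays also lay on 3 slides in an uneven way. An array of each group was on slide 1: replicate 1 of TTX, replicate 3 of W15 and replicate 1 of W45. The remaining TTX arrays were on slide 2, and the remaining W15 and W45 arrays on slide 3. Within slide 3 (2 arrays against 2), W45 minus W15 was -0.89 for Ndufab1, -0.94 for Atp5s, -0.40 for Atp5h, 0.51 for Uqcrfs1 and 0.33 for Uqcrh. Within slide 1 (1 array against 1), the same differences were 0.070, 0.066, 0.021, 0.016 and 0.12. The difference of Ndufab1 is thus seen between arrays that share a slide and not on the other slide, where W45 minus TTX was 0.10. The members' median of W45 minus W15 was 0.011 on slide 3 and 0.019 on slide 1. No slide held TTX and washed arrays in more than 1 pair, so the TTX comparisons lean on arrays of different slides. With slide as a block in the fit, 0 members were called. Against TTX, that fit called 0 of all genes in W15 and 22 in W45, so the W15 count says nothing about the members. The members' medians were 0.043 in W15 and 0.044 in W45 against TTX.

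Where a member had several probes, the brightest was used, and 8 members had more than 1. In W45 against TTX, Atp5g2 gave log2 fold changes of 0.11 and 0.24, Ndufc2 gave 0.23 and 0.066, Ndufa9 gave 0.062 and 0.0074, and Ndufs8 gave -0.038 and -0.048, each pair on the same side of 0. Ndufa2 gave -0.040 and 0.0051, and Cox5b gave -0.026 and 0.054, with the brightest probe first.

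Members lay on 19 chromosomes, with 12 on chromosome 1 and 10 on chromosome 7 in the rn3 build. Neighbouring pairs included Ndufs8 and Ndufv1 on chromosome 1, whose probes are 153627 bases apart, Ndufs7 and Atp5d on chromosome 7 (109083), and Cox4nb and Cox4i1 on chromosome 19 (9858). In W15 against TTX, Ndufv1 gave 0.34 ± 0.15 and its neighbour Ndufs8 0.037 ± 0.12. In W45, Cox4i1 gave 0.072 ± 0.18 and Cox4nb -0.037 ± 0.13.

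The other genes of the pathway gave no call either. Of 15 tested electron carrier, ubiquinone synthesis and other subunit genes, 24 assembly factors, 16 citric acid cycle genes, 20 regulators of mitochondrial gene expression and 18 genes of ATP export and energy buffering, 0 rose and 0 fell in each of the 3 comparisons by limma, where 0.0232 to 0.209% of all genes were called. Unadjusted p-values under 0.05 in W45 against TTX numbered 2, 1, 1, 2 and 1 in these lists, 0, 0, 1, 1 and 0 in W15 against TTX, and 1, 1, 2, 1 and 2 in W45 against W15, where 6.44%, 3.39% and 6.63% of all genes had one. The first list holds Atp5s under its current name. Their medians in W45 were 0.092, 0.011, 0.026, -0.0019 and 0.0085. Coq10b, a ubiquinone-binding protein, read 2.15, 2.24 and 2.13 in TTX, 2.18, 2.80 and 2.19 in W15 and 2.59, 2.70 and 2.60 in W45, the largest rise of its list (0.46 ± 0.17, adjusted p = 0.742). Pdha1, the alpha subunit of pyruvate dehydrogenase, read 3.40, 3.62 and 3.64 in TTX, 3.60, 3.51 and 3.41 in W15 and 3.46, 2.28 and 2.43 in W45, with W45 replicate 1 apart from replicates 2 and 3 (-0.83 ± 0.27, adjusted p = 0.662). Slc25a27, a carrier of the uncoupling protein family, gave -0.77 ± 0.34, and Sdhaf1, an assembly factor of complex II, gave -0.52 ± 0.22.

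Among the regulators, Mterf1, a termination factor of mitochondrial transcription, had the largest change of its list in W45 (-0.66 ± 0.19, adjusted p = 0.537) and read 4.44, 4.52 and 4.31 in TTX, 4.55, 4.18 and 4.25 in W15 and 4.15, 3.60 and 3.53 in W45. Ppargc1b, a PGC-1 coactivator, read -3.75, -3.54 and -3.30 in TTX, -3.21, -2.77 and -2.88 in W15 and -2.91, -2.80 and -3.44 in W45, higher by estimate in W15 (0.58 ± 0.21) and W45 (0.48 ± 0.21), with adjusted p-values of 0.997 and 0.768. The plot of log2 fold changes by gene list sets these lists beside the immediate early genes.

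**Figure D5:**
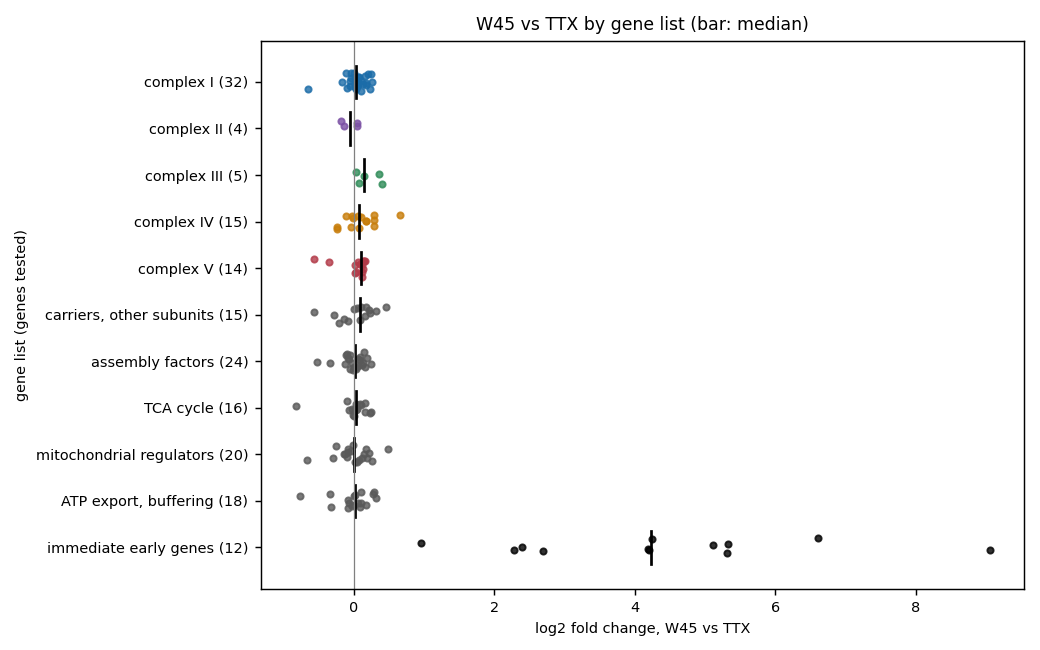
Log2 fold change in W45 against TTX (horizontal axis) of single genes, by OXPHOS complex and by 6 other gene lists (vertical axis, number tested in brackets, small vertical scatter added for legibility), with a bar at each median. The 5 complexes and 5 mitochondrial lists lie within -0.83 and 0.65, while the 12 immediate early genes span 0.95 to 9.05. The last is Npas4, which was not well above background in TTX, so that its fold change is uncertain.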

How the data were processed

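All 9 arrays were read, 3 per group. Per the file headers, the deposited intensity values are Cy3 processed signals of Agilent Feature Extraction 9.5, the version also in the submitters' processing notes, background-subtracted and detrended within each array, unscaled between arrays, with probe positions in rn3.

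Each log2 intensity was set against its array's 75th percentile. That percentile was taken over all non-control spots of the 41012 probes, without outlier spots and before repeated spots were averaged. Outlier spots were set to missing (at most 1 array per probe) and repeated spots averaged. A probe needed every array of some group to be well above background, which 30323 passed; the brightest per gene name gave 25809 genes. All 9 arrays were fitted with limma 3.58.1 (R 4.3.3), with a mean per group, two-sided moderated tests and Benjamini-Hochberg adjustment over all genes, called under 0.05; the script was tested on simulated data. An exact permutation test of 3 against 3 cannot go below 0.1.

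Equal replicate numbers deviated together, with correlations of 0.063 to 0.39 over 9 pairs against -0.38 to 0.088 over 18 pairs of unequal number. Deviations from a group mean cancel within the group, so positive values at equal numbers bring negative ones at unequal numbers. The second range is therefore no separate evidence. All 3 pairs exceeded 0.1 in both TTX comparisons, where the numbers may pair the arrays, but not between W45 and W15. The main fit did not use this pairing, so the standard errors, intervals and p-values printed above are unpaired. The replicate number entered as a block only among the alternatives. The members and lists were chosen with earlier results of these data known. Named genes were the largest rise and fall per complex in each TTX comparison, called members, a fixed set of core subunits and isoforms, and the extremes of the other lists; others named were chosen after their values were seen. Alternatives changed background correction, scaling, filter, probe choice, blocks, spread model and arrays included. The values of 1 member are not reported here, though counts and medians over the members include it.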

Additional observations from a re-analysis of the deposited data

How the results depend on the processing

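There were 22 alternatives, 9 of which left out 1 array. The slide 1 arrays alone, 1 per group, gave medians and no test. Under the other 21, the number of OXPHOS members called stayed at 0 in W15 against TTX, and ranged from 0 to 1 over the arrays left out in W45 against TTX and in W45 against W15; the 1 was Ndufab1, without W45 replicate 1. The members' median log2 fold change in W45 against TTX was -0.020 with quantile scaling (all genes 0.013). With no scaling between arrays it was -0.18 in W15 and -0.21 in W45 against TTX, where the medians of all genes were -0.15 and -0.21. With normexp the members' median was 0.0033 in W15 against TTX and 0.066 in W45 against W15, where those of all genes were 0.21 and -0.20. Over arrays left out, the median spanned 0.011 to 0.073 in W15 and -0.00066 to 0.11 in W45 against TTX, and -0.041 to 0.075 in W45 against W15. Of 2583 values of complexes and single members, 2314 stayed the same, 267 moved and 2, both Ndufab1, came past the threshold. A tested member moved if its estimate changed sign with no call on either side, whatever the size. With no change of sign and no call it counted as the same, however far its size shifted. For single members the tally therefore does not measure how stable the sizes were. A complex median, or a member on slide 1 alone, moved if it shifted by at least the replicate spread.

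With the replicate number as a block, 0 members were called in each comparison, the lowest adjusted p being 0.872, 0.533 and 0.570; the block changed no call among the members. With slide as a random block (correlation -0.064) and as a fixed block, 0 were called as well. Of all genes, the random block called 6 in W15 and 54 in W45 against TTX, and 32 in W45 against W15. The fixed block called 0, 22 and 25, so its W15 result holds no information on the members. The number of arrays limits the precision.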

Other observations

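Transcripts made from mitochondrial DNA fall outside the choice by gene name, but 11 probes on the array are listed under mitochondrial genome sequences. The files do not pair these probes with single genes. All 11 were well above background on all 9 arrays, and none was saturated. None passed the test in W15 or W45 against TTX (limma over all kept probes, lowest adjusted p 0.980 and 0.835). Other scalings were not tried on these probes, which do not stand for 11 separate genes. In W45 against TTX their log2 fold changes spanned -0.12 to 0.30. In W15 against TTX, 10 of the 11 had a log2 fold change above 0, between 0.090 and 0.36, where 61.3% of all genes did. The other gave -0.52 ± 0.35 (SE). The last came with 1 low array: it read 6.46, 6.38 and 6.52 in TTX, 6.36, 6.42 and 5.03 in W15 and 6.37, 6.69 and 5.93 in W45.

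The replicates of a group differed for several of these probes. The first of 2 examples, chosen after their values were seen, read 5.11, 5.22 and 5.78 in TTX, 4.92, 5.61 and 5.85 in W15 and 5.55, 5.53 and 5.29 in W45, so replicate 3 was the highest array in TTX and in W15. The second read 2.97, 3.04 and 3.68 in TTX and 3.29, 3.52 and 3.95 in W15, again with replicate 3 highest.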
